A study of Chlamydomonas reinhardtii with 45 samples.

Results

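The genes described here encode the high-affinity iron assimilation proteins of the green alga Chlamydomonas reinhardtii. They were chosen by gene identifier, with earlier results of these data known. They comprise the multicopper ferroxidase FOX1 (Cre09.g393150), the ferric permease FTR1 (Cre03.g192050), the iron-assimilatory proteins FEA1 (Cre12.g546550) and FEA2 (Cre12.g546600), the ferrireductase FRE1 (Cre04.g227400) and the ZIP-family transporter IRT1 (Cre12.g530400). Of these 6 genes, 5 were followed, out of 17737 genes in the expression table, and FOX1 was not analysed here.

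Iron is often poorly soluble in an aerobic medium, and the alga takes it up in steps at the cell surface. Ferrireductases reduce ferric iron, FOX1 re-oxidises it and passes it to the permease FTR1, and the FEA proteins lie in the periplasm and assist assimilation. The transcripts of these genes are known to accumulate when cells are short of iron, and ZIP-family proteins such as IRT1 carry divalent metal ions.

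Wild-type CC-4533 cells were grown in liquid acetate-containing medium and sampled for RNA-seq after an osmotic challenge, either 100 mM NaCl or 300 mM mannitol. Each osmolyte was sampled after 15, 30 and 60 min and after 4, 6 and 24 h, with 3 libraries per group. Untreated cells were sampled at 24 h (control 24 h, 4 libraries) and at the start (control 0 h, 5 libraries), giving 14 groups and 45 libraries. All groups came from 1 wild-type strain, and time points of a culture were drawn from the same flask, so p-values measure the spread between these libraries.

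Values are transcript abundances in TPM, a share of the RNA of a library, and so less RNA per cell and a smaller share of the RNA cannot be told apart. Every library summed to the same total, and the depth behind each value is not known. Between 13409 and 15520 transcripts were above 0 in a library. A single transcript, g15293.t1, took between 5.33% and 52.3% of a library's TPM, which lowers all other values in the libraries where it is high. The median log2 fold change over all transcripts was -0.63 at 30 min of NaCl, -0.57 at 60 min of NaCl and -0.55 at 60 min of mannitol against control 0 h. Each was between -0.11 and -0.09 after median-ratio scaling, so scaled values are given where they matter. A transcript was called when its adjusted p (limma on log2(TPM + 1), Benjamini-Hochberg over 13651 transcripts) was under 0.01 and its fold change exceeded 2 in either direction. Adding 1 to each value makes the fold changes of low transcripts, FRE1 and IRT1 here, smaller than their ratios of TPM.

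FEA1, FEA2 and FRE1 had the highest of their 14 group means in untreated cells at 24 h. FEA1, FEA2, FRE1 and FTR1 were all higher in control 24 h than in control 0 h, whereas 18 of 13651 transcripts (0.132%) were called higher in that comparison. FEA1 had the largest increase of all transcripts tested. At 24 h FEA1, FEA2, FRE1 and FTR1 were lower in NaCl-treated than in untreated cells, where 5.97% of all transcripts were called lower. FEA1, FEA2 and FRE1 were lower in mannitol-treated than in untreated cells, where 0.168% of all transcripts were. Against control 0 h, 4 of the genes were higher at 30 min of NaCl, 3 at 60 min of NaCl and 4 at 60 min of mannitol. The shares of all transcripts called higher there were 5.59%, 5.55% and 9.80%.

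**Figure D1:**
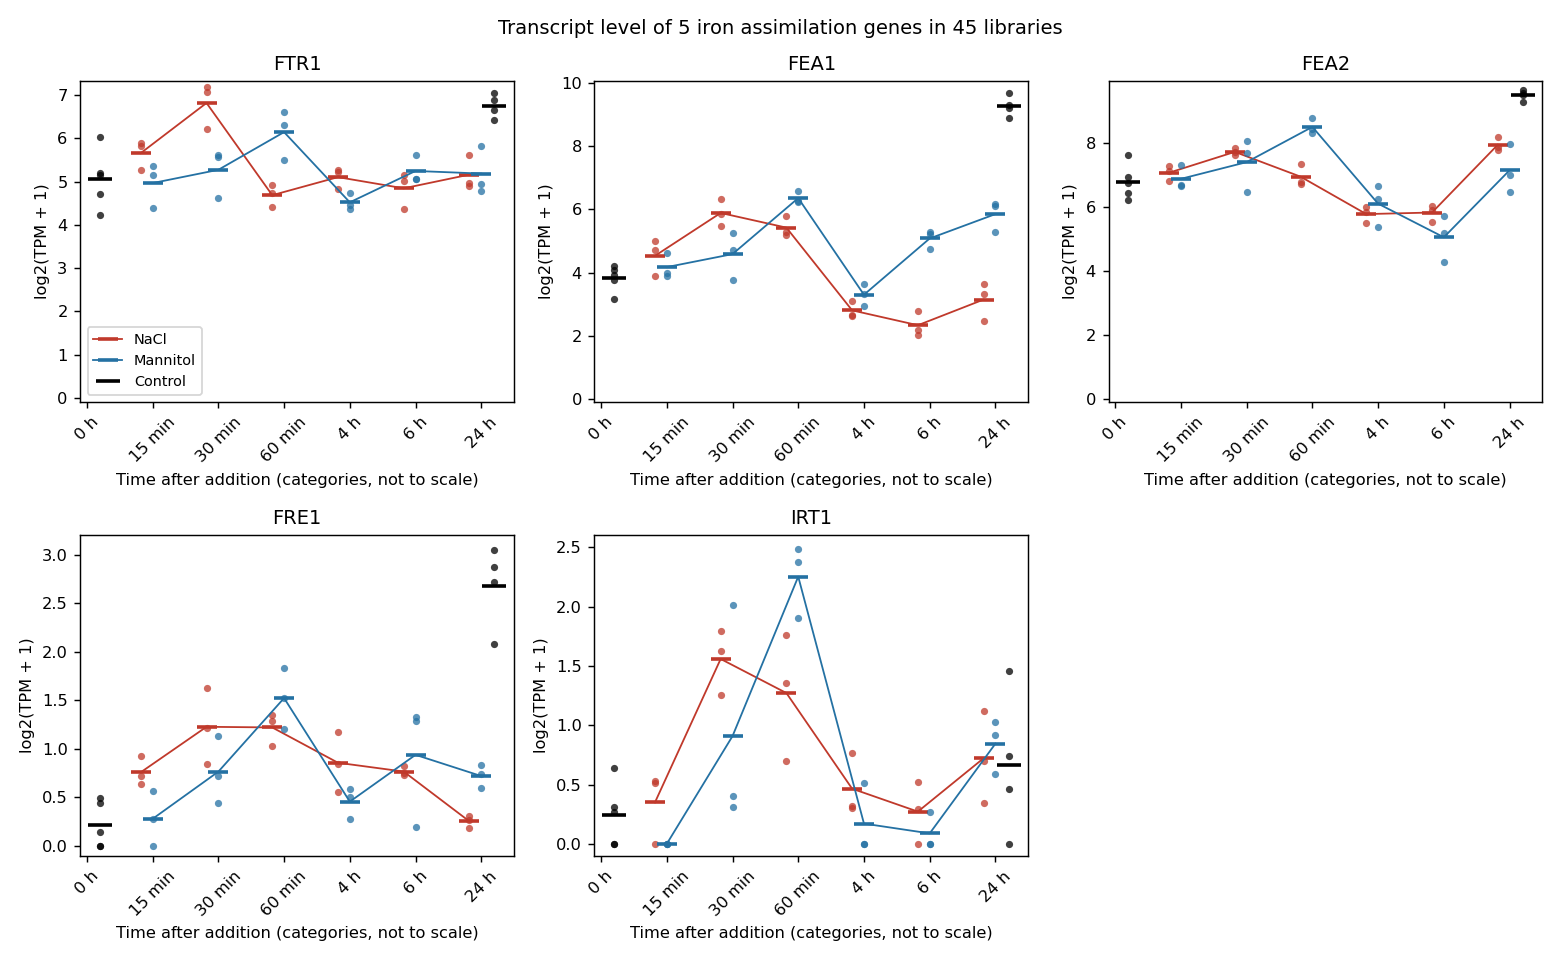
Level of the 5 genes as log2(TPM + 1) in each library (points) with the group mean (bars), by time after addition of NaCl (red) or mannitol (blue) and in untreated controls (black); the time axis is categorical. FEA1, FEA2 and FRE1 have their highest points in the 4 control 24 h libraries, and IRT1 has its highest group mean at 60 min of mannitol.

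FEA1 changed most. It had 594, 470, 626 and 820 TPM in the control 24 h libraries, against 17.4, 12.7, 15.9, 14.1 and 7.90 TPM in the control 0 h libraries. Every 24 h library lay far above every 0 h library. The log2 fold change was 5.44 (SE 0.25, adjusted p = 1.19e-09 by limma), the first of 13651 transcripts when ranked from the top, and FEA1 ranked 175 by mean TPM among 19526 transcripts in control 24 h, against 3953 in control 0 h.

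FEA2, the neighbouring gene, was already abundant at the start. It had 752, 723, 807 and 617 TPM in control 24 h, against 194, 84.8, 122, 105 and 73.3 TPM in control 0 h. The groups did not overlap, and the log2 fold change was 2.71 (SE 0.26, adjusted p = 5.85e-06 by limma), rank 6.

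The permease FTR1 had 100.3, 118, 132 and 84.4 TPM in control 24 h, against 64.2, 25.1, 34.6, 35.9 and 17.6 TPM in control 0 h. All 4 later libraries were above all 5 earlier ones, with a log2 fold change of 1.69 (SE 0.30, adjusted p = 0.0031 by limma) at rank 11. This call was lost when control 0 h replicate 2 or 3, or control 24 h replicate 2, 3 or 4, was left out, with adjusted p between 0.0116 and 0.0163 and log2 fold changes between 1.59 and 1.72, and with no filter on low values (adjusted p = 0.0681).

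The ferrireductase FRE1 was a low transcript in all groups. It had 6.34, 5.56, 7.29 and 3.24 TPM in control 24 h, against 0.102, 0.357 and 0.407 TPM in 3 control 0 h libraries and a listed 0 in the other 2. The log2 fold change was 2.47 (SE 0.24, adjusted p = 7.54e-06 by limma) at rank 8. IRT1 was the exception, with 0, 0.377, 0.672 and 1.74 TPM in control 24 h and between 0 and 0.555 TPM in control 0 h. Its groups overlapped and its log2 fold change of 0.42 (SE 0.25, adjusted p = 0.34) did not pass.

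**Figure D2:**
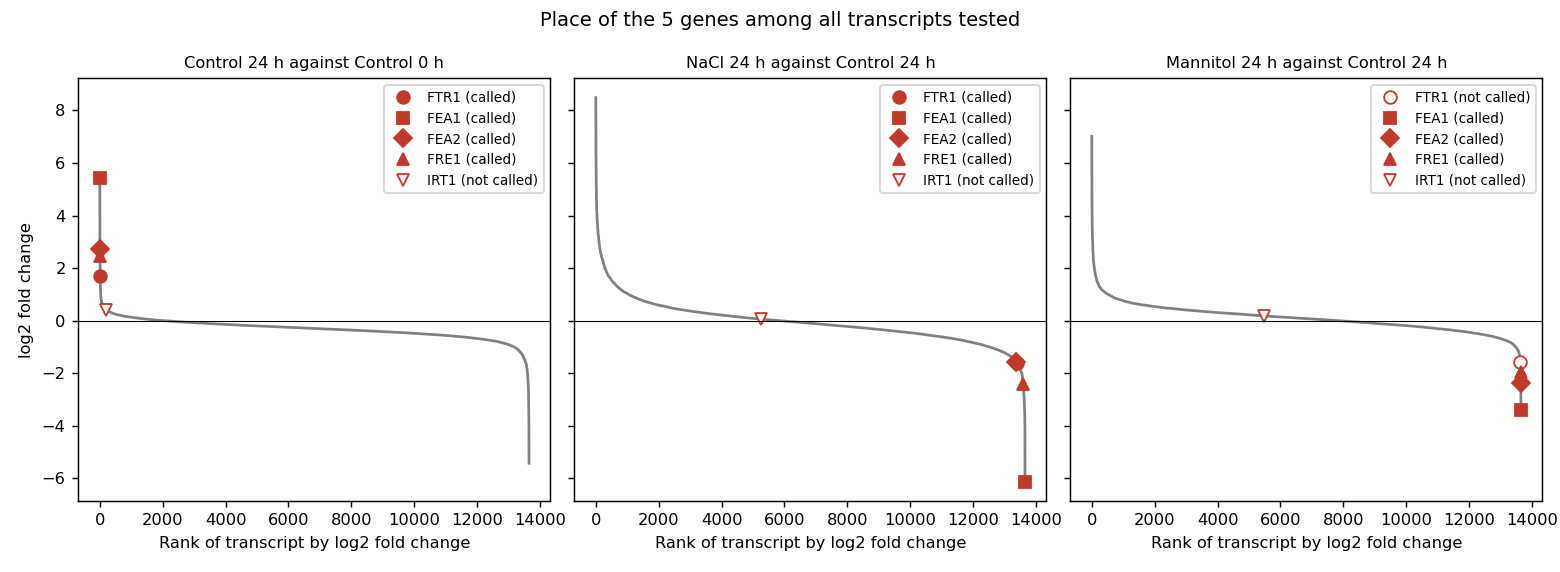
log2 fold change of all 13651 transcripts tested, ranked from highest to lowest (grey line), with the 5 genes marked (filled, called; open, not called), for control 24 h against control 0 h and for NaCl and mannitol 24 h against control 24 h. FEA1 is the first transcript in the untreated comparison (5.44) and the last in the NaCl comparison (-6.12).

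At 24 h the treated cultures were compared with the untreated culture of the same age. This comparison shares the control 24 h libraries with the one above, so the high untreated values enter both. After NaCl 4 of the 5 genes were lower, where 5.97% of all transcripts were called lower, and after mannitol 3 of the 5 were, where 0.168% of all transcripts were. The median log2 fold change of the 5 genes was -1.59 after NaCl and -1.96 after mannitol, against medians over all transcripts of -0.10 and 0.08. With no filter on low values the FTR1 call after NaCl was lost (adjusted p = 0.0205), and none of the 3 calls after mannitol passed, with adjusted p of 0.0193 for FEA1, 0.0463 for FRE1 and 0.0699 for FEA2.

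FEA1 had 8.99, 4.57 and 11.4 TPM after 24 h of NaCl and 70.8, 38.2 and 67.3 TPM after 24 h of mannitol, against 470 to 820 TPM in control 24 h. Neither treated group overlapped the control. The log2 fold change was -6.12 (SE 0.29, adjusted p = 1.25e-08) after NaCl, the lowest of all 13651 transcripts, and -3.42 (SE 0.29, adjusted p = 4.99e-05) after mannitol, the second lowest, both by limma.

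FEA2 had 291, 230.4 and 216 TPM after NaCl and 249.7, 126 and 86.8 TPM after mannitol, against 617 to 807 TPM in control 24 h. Both treated groups lay below the control, with log2 fold changes of -1.56 (SE 0.22, adjusted p = 0.000166) after NaCl and -2.36 (SE 0.33, adjusted p = 0.00235) after mannitol by limma. The mannitol call was lost without mannitol 24 h replicate 2 (adjusted p = 0.0235).

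FRE1 had 0.236, 0.207 and 0.135 TPM after NaCl and 0.667, 0.778 and 0.508 TPM after mannitol, against 3.24 to 7.29 TPM in control 24 h. The log2 fold changes were -2.43 (SE 0.27, adjusted p = 2.88e-05) and -1.96 (SE 0.27, adjusted p = 0.00244) by limma. The call after mannitol was lost without control 24 h replicate 2 or mannitol 24 h replicate 1 or 2, with adjusted p between 0.01001 and 0.0316.

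FTR1 had 48.4, 30.1 and 29 TPM after NaCl and 56, 29.7 and 26.7 TPM after mannitol, against 84.4 to 132 TPM in control 24 h. Its log2 fold change was -1.59 (SE 0.26, adjusted p = 0.000577) after NaCl. After mannitol it was -1.57 (SE 0.29, adjusted p = 0.0129), which did not pass, and -1.66 with an adjusted p of 0.0066 after median-ratio scaling, which did, where 0.300% of all transcripts were called lower. IRT1 gave log2 fold changes of 0.06 and 0.18 with adjusted p of 0.93 and 0.82.

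Set against control 0 h instead, 1 gene was called after each osmolyte at 24 h. FEA2 was higher after NaCl (log2 fold change 1.15, SE 0.30, adjusted p = 0.00606), and FEA1 was higher after mannitol (2.03, SE 0.32, adjusted p = 0.000453), both by limma, where 3.22% and 0.491% of all transcripts were called higher. FEA1 after NaCl gave -0.68 with an adjusted p of 0.12. FTR1 averaged 35.8 TPM after NaCl and 37.5 TPM after mannitol, against 35.5 TPM in control 0 h, and neither FTR1, FRE1 nor IRT1 was called after either osmolyte. The FEA2 call was lost when control 0 h replicate 2, 3 or 4 or NaCl 24 h replicate 1 or 2 was left out, with adjusted p up to 0.0339. With no filter on low values it was lost too (adjusted p = 0.0723), as was the FEA1 call after mannitol (adjusted p = 0.0779).

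**Figure D3:**
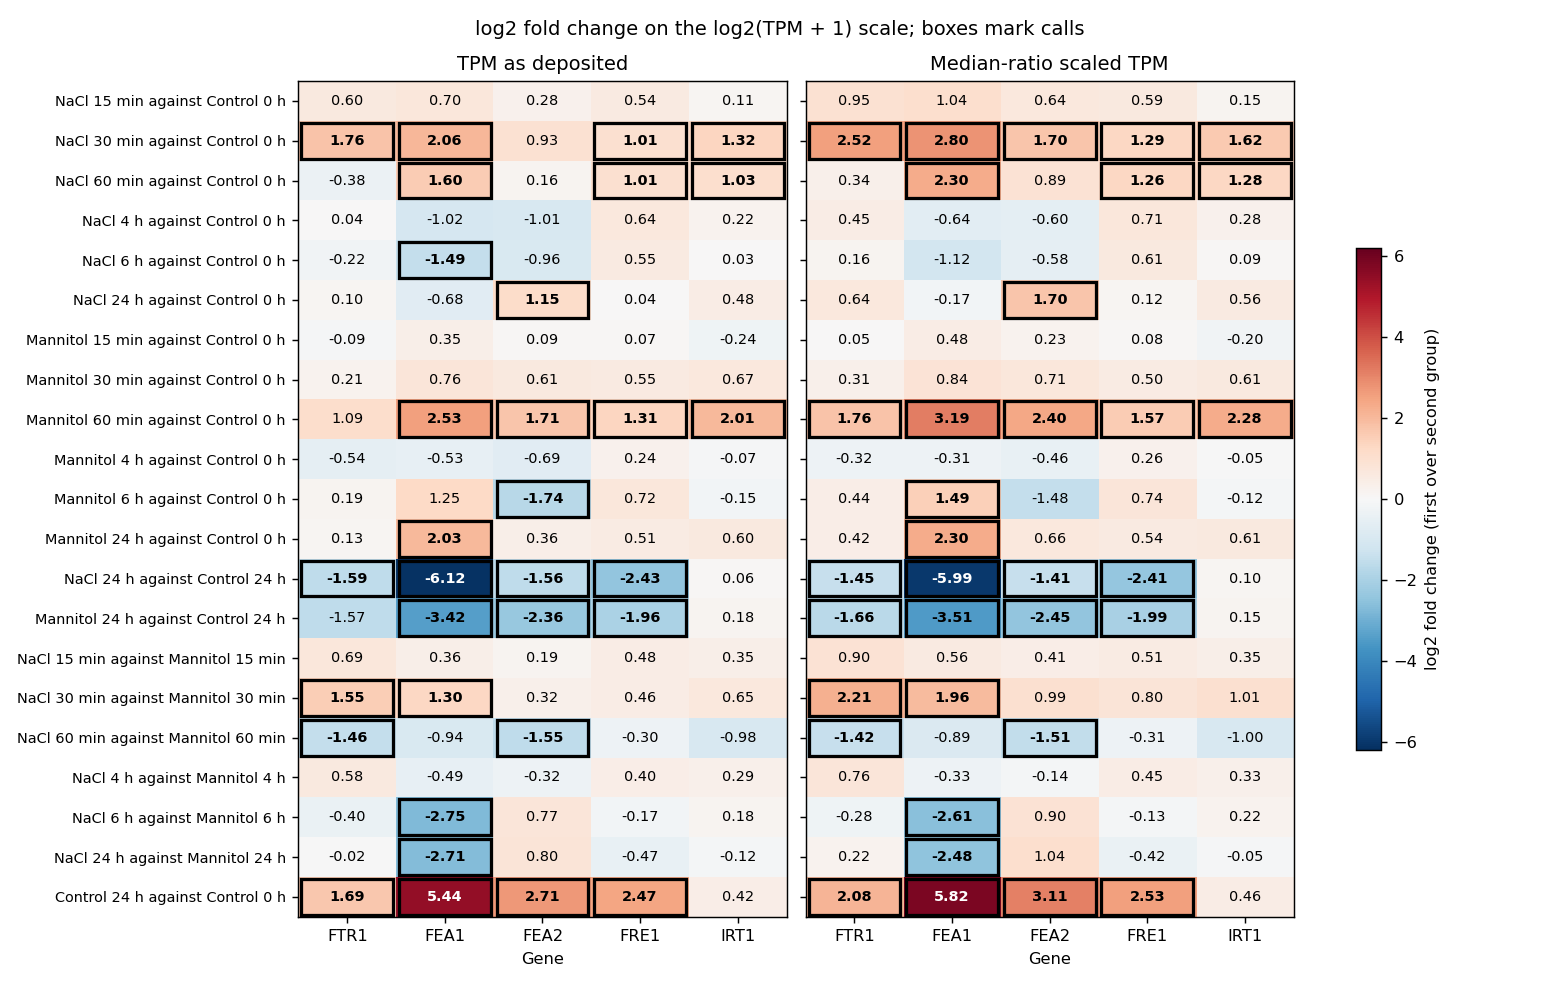
log2 fold change of the 5 genes (columns) in 21 comparisons (rows, first group over second), from the deposited TPM (left) and after median-ratio scaling (right); boxes and bold type mark calls. Of the 32 calls made as deposited, 30 are boxed with the same sign on the right.

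Within the first hour the genes were compared with control 0 h at 15, 30 and 60 min. After 15 min of NaCl none of the 5 was called, with 2 at an unadjusted limma p under 0.05, where 2.51% of all transcripts were called in either direction. After 15 min of mannitol none was called, with 0 at that level, where 0.0806% of all transcripts were. After 30 min of NaCl 4 of the 5 were higher than in control 0 h, where 5.59% of all transcripts were called higher. The median log2 fold change of the 5 was 1.32, against -0.63 over all transcripts. After 30 min of mannitol none was called, with 3 at an unadjusted limma p under 0.05, where 0.901% of all transcripts were called in either direction.

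FTR1 had 144, 133 and 73.5 TPM after 30 min of NaCl, against 17.6 to 64.2 TPM (median 34.6) in control 0 h, and this was its highest group mean, 117 ± 38.0 TPM (SD, n = 3). The log2 fold change was 1.76 (SE 0.34, adjusted p = 0.000474 by limma), and the call was lost with no filter on low values (adjusted p = 0.0280). By 60 min of NaCl FTR1 had 29.1, 25.9 and 20.2 TPM, within the range of control 0 h. Its log2 fold change there was -0.38 as deposited and 0.34 after median-ratio scaling, neither of them called.

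FEA1 had 78.7, 57.2 and 43.7 TPM after 30 min of NaCl and 38.2, 54.5 and 35.2 TPM after 60 min, against 7.90 to 17.4 TPM in control 0 h. Both groups were above the control, with log2 fold changes of 2.06 (SE 0.29, adjusted p = 1.07e-05) and 1.60 (SE 0.29, adjusted p = 7.67e-05) by limma. FEA2 gave 0.93 at 30 min, which fell short of the fold threshold and passed after median-ratio scaling (1.70), where 11.7% of all transcripts were called higher. At 60 min it gave 0.16.

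The low transcripts rose as well. IRT1 had 2.48, 2.08 and 1.39 TPM after 30 min of NaCl and 2.39, 1.56 and 0.621 TPM after 60 min, against 0 to 0.555 TPM in control 0 h. The log2 fold changes were 1.32 (SE 0.24, adjusted p = 0.000158) and 1.03 (SE 0.25, adjusted p = 0.00165) by limma. FRE1 averaged 1.40 TPM at 30 min and 1.34 TPM at 60 min, against 0.173 TPM in control 0 h. Its log2 fold change on the log2(TPM + 1) scale was 1.01 at both times (adjusted p = 0.00152 and 0.000686 by limma). Both values stood just past the fold threshold, and each call was lost without control 0 h replicate 1, 4 or 5, without NaCl 30 min replicate 3, or without NaCl 60 min replicate 2 or 3, with log2 fold changes down to 0.81. The IRT1 call at 60 min was lost without NaCl 60 min replicate 1 or 2 or control 0 h replicate 3 or 5, down to 0.78. With no filter on low values the calls of FRE1 at 30 min (adjusted p = 0.0159) and IRT1 at 60 min (adjusted p = 0.0286) were lost. At 60 min of NaCl 3 of the 5 genes were called higher, where 5.55% of all transcripts were.

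After 60 min of mannitol 4 of the 5 genes were higher than in control 0 h, where 9.80% of all transcripts were called higher. FEA1 had 75.8, 94.3 and 74.4 TPM, against 7.90 to 17.4 TPM in control 0 h, a log2 fold change of 2.53 (SE 0.30, adjusted p = 5.68e-07 by limma). FEA2 had 341, 432 and 315 TPM, against 73.3 to 194 TPM, a log2 fold change of 1.71 (SE 0.29, adjusted p = 5.77e-05). Neither gene's libraries overlapped the control. The FEA2 call was lost with no filter on low values (adjusted p = 0.0112).

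IRT1 had its highest mean of all 14 groups here, with 4.59, 4.19 and 2.73 TPM at 60 min of mannitol, against 0 to 0.555 TPM in control 0 h. Its log2 fold change was 2.01 (SE 0.27, adjusted p = 2.7e-06 by limma). All 3 libraries of mannitol 15 min were listed at 0 for IRT1. Those of mannitol 30 min had 0.326, 3.03 and 0.238 TPM, the highest of them above the lowest at 60 min. FRE1 had 1.31, 1.88 and 2.57 TPM, against 0 to 0.407 TPM in control 0 h, with a log2 fold change of 1.31 (SE 0.25, adjusted p = 0.000201). FTR1 had 96.8, 78.8 and 44.7 TPM, against 17.6 to 64.2 TPM in control 0 h, and a log2 fold change of 1.09 with an adjusted p of 0.0138, which passed after median-ratio scaling (1.76, adjusted p = 0.000398), where 17.5% of all transcripts were called higher.

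None of the 5 genes was called at 4 h of NaCl, with 3 at an unadjusted limma p under 0.05, or at 4 h of mannitol, with 0 at that level, where 14.9% and 2.73% of all transcripts were called in either direction. After 4 h of NaCl FEA1 had 7.66, 5.37 and 5.17 TPM, all below the control 0 h range of 7.90 to 17.4 TPM, and its log2 fold change of -1.02 had an adjusted p of 0.0143. FRE1 had 1.26, 0.793 and 0.470 TPM at 4 h of NaCl and 0.679, 0.771 and 0.655 TPM at 6 h, all above the control 0 h libraries (0 to 0.407 TPM), with log2 fold changes of 0.64 and 0.55 that were not called. FEA2 had 62.3, 56.4 and 43.9 TPM at 4 h of NaCl and 64.1, 58.9 and 45.2 TPM at 6 h. All were below the control 0 h range of 73.3 to 194 TPM, and FEA2 was not called at either time. At 6 h 1 FEA gene was called lower after each osmolyte, FEA1 after NaCl and FEA2 after mannitol. FEA1 fell to 3.06, 3.54 and 5.92 TPM after NaCl, against 7.90 to 17.4 TPM in control 0 h (log2 fold change -1.49, SE 0.30, adjusted p = 0.00217), where 9.19% of all transcripts were called lower. This call was lost without NaCl 6 h replicate 1 or 2, with no filter on low values (adjusted p = 0.0275) and after median-ratio scaling (-1.12, adjusted p = 0.0102).

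After 6 h of mannitol FEA2 had 51.3, 34.9 and 18.2 TPM, against 73.3 to 194 TPM in control 0 h, with a log2 fold change of -1.74 (SE 0.35, adjusted p = 0.00603 by limma), where 1.30% of all transcripts were called lower. It did not pass after median-ratio scaling (-1.48, adjusted p = 0.0206), with no filter on low values (adjusted p = 0.144) or when control 0 h replicate 1, 2, 3 or 4 or mannitol 6 h replicate 2 or 3 was left out. FEA1 in the same libraries had 38.0, 25.6 and 36.2 TPM, all above control 0 h. Its log2 fold change of 1.25 had an adjusted p of 0.0155, and it passed after median-ratio scaling (1.49, adjusted p = 0.0017), where 0.886% of all transcripts were called higher.

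Because both FEA transcripts come from the same library, their ratio does not depend on how libraries are scaled. The FEA1 to FEA2 ratio was 0.740, 0.734 and 1.99 in the libraries of mannitol 6 h, against 0.0897, 0.149, 0.130, 0.134 and 0.108 in control 0 h. It was 0.79, 0.650, 0.777 and 1.33 in control 24 h. After NaCl the ratio was 0.351, 0.343 and 0.338 at 60 min and 0.0309, 0.0198 and 0.0530 at 24 h, above and below all control 0 h libraries.

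Of 15 comparisons of this ratio by a two-sided exact permutation test of log2 ratios, 8 had groups that did not overlap and reached the smallest p the design allows, which is 0.0357 with 3 against 5 libraries, 0.0571 with 3 against 4 and 0.0159 with 4 against 5. After Benjamini-Hochberg adjustment over the 15, the lowest adjusted p of these exact permutation tests was 0.0765, and none passed 0.05. With these smallest p-values, comparisons of 3 against 4 libraries could not pass. The others could pass only if most of the 15 reached their smallest p, so the adjusted values cannot decide on a single comparison. How often ratios of other transcript pairs separate the same groups was not tested. FEA1 and FEA2 are neighbours with related products, and how reads common to both were assigned was not tested.

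**Figure D4:**
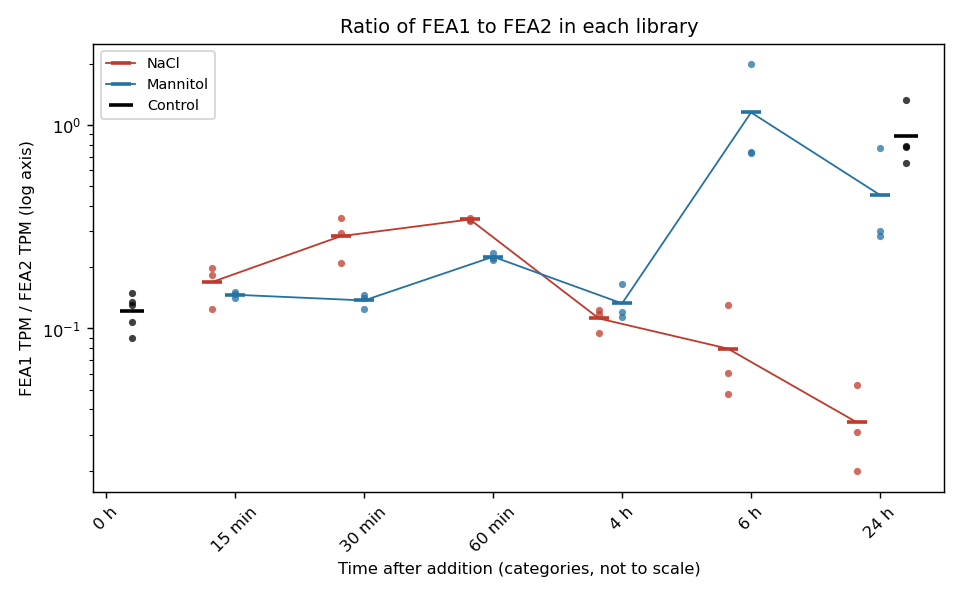
Ratio of FEA1 TPM to FEA2 TPM in each library (points, log axis) with the group mean (bars), by time after NaCl (red) or mannitol (blue) and in controls (black). The ratio is between 0.0897 and 0.149 in control 0 h, from 0.734 to 1.99 at 6 h of mannitol and from 0.0198 to 0.0530 at 24 h of NaCl.

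A direct comparison of NaCl with mannitol at the same time gave 6 calls, and all 6 were lost with no filter on low values, with adjusted p between 0.0279 and 0.149. The share of all transcripts called with no filter was not counted. None of the 5 genes was called at 15 min or 4 h, with 0 at an unadjusted limma p under 0.05 at either time, where 1.64% and 1.05% of all transcripts were called in either direction. FEA2, FRE1 and IRT1 were not called at 30 min, with log2 differences of 0.32, 0.46 and 0.65. At 30 min FTR1 (144, 133 and 73.5 TPM after NaCl, against 46.7, 48.2 and 23.8 TPM after mannitol) and FEA1 were higher after NaCl, with log2 differences of 1.55 (SE 0.31, adjusted p = 1.4e-05) and 1.30 (SE 0.31, adjusted p = 0.000287) by limma, where 4.19% of all transcripts were called higher. The FTR1 call was lost without mannitol 30 min replicate 1, and that of FEA1 without NaCl 30 min replicate 1 or mannitol 30 min replicate 1 or 3.

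At 60 min the order was turned round for FTR1, with 29.1, 25.9 and 20.2 TPM after NaCl, against 96.8, 78.8 and 44.7 TPM after mannitol, a log2 difference of -1.46 (SE 0.30, adjusted p = 0.000756). FEA2 differed likewise, by -1.55 (SE 0.27, adjusted p = 0.000161), where 14.7% of all transcripts were called lower. FEA1, FRE1 and IRT1 were not called, with log2 differences of -0.94, -0.30 and -0.98, and 4 of the 5 genes had an unadjusted limma p under 0.05. The FTR1 call was lost without mannitol 60 min replicate 2 (adjusted p = 0.0116).

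At 6 and 24 h FEA1 was the gene of the 5 that was called between the osmolytes. It had 3.06, 3.54 and 5.92 TPM after 6 h of NaCl, against 38.0, 25.6 and 36.2 TPM after mannitol, a log2 difference of -2.75 (SE 0.29, adjusted p = 0.00183), where 0.249% of all transcripts were called lower. At 24 h the log2 difference was -2.71 (SE 0.37, adjusted p = 7.15e-07), where 3.44% were. The 6 h call was lost without mannitol 6 h replicate 1 or 2 or NaCl 6 h replicate 2, with adjusted p between 0.0111 and 0.0165.

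Ordered by group mean, FEA1 ran from 628 ± 145 TPM in control 24 h (SD, n = 4) through 81.5 ± 11.1 TPM at 60 min of mannitol to 4.17 ± 1.53 TPM at 6 h of NaCl (SD, n = 3 each). Only the step below control 24 h was free of overlap between neighbouring groups. FEA2 ran from 725 ± 79.8 TPM in control 24 h to 34.8 ± 16.6 TPM at 6 h of mannitol, and its first 2 steps were free of overlap. For FTR1 every pair of neighbouring groups overlapped, from 117 TPM at 30 min of NaCl to 22.1 ± 3.12 TPM at 4 h of mannitol (SD, n = 3).

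The level of some genes also moved with the library number in the labels. In each of the 14 groups 1 library carried a number of 49 or higher. That library had the lowest FTR1 value of its group in 13 of the 14 groups and the lowest FEA2 value in 12, FRE1 in 9, FEA1 in 8 and IRT1 in 7. It had the highest value in 3 groups each for FEA1, FRE1 and IRT1, and in 0 for FTR1 and FEA2. How often this held for other transcripts was not tested. With those libraries left out, an alternative chosen after seeing the data, the counts of calls were 9 after NaCl, 8 after mannitol, 8 at 24 h against control 24 h, 6 between osmolytes and 4 between controls. The share of all transcripts called without those libraries was not counted. What the numbers stand for was not tested.

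The transcripts whose pattern was most like each gene were found by Pearson's r over the 45 libraries, which share flasks and time points, on median-ratio scaled log2(TPM + 1). The closest to FTR1 were Cre07.g336800 (0.88), Cre05.g241400 (0.85) and Cre12.g546500 (0.84). The closest to FEA1 were Cre16.g676150 (0.85), Cre12.g530350 (0.83) and Cre01.g010400 (0.83). For FEA2 they were Cre16.g676150 (0.85), Cre12.g546500 (0.84) and Cre12.g541400 (0.81).

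FRE1 was most like FEA1 (0.82), then Cre07.g336800 (0.79) and Cre01.g010400 (0.72). IRT1 had other companions, Cre10.g425000 (0.87), Cre16.g687800 (0.87) and Cre12.g559400 (0.86), and its r with the other 4 genes was between 0.42 and 0.60. Among those 4 genes r was between 0.67 and 0.82.

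A list of 15 further gene identifiers was followed beside the 5 genes, and 10 transcripts of it were tested. In control 24 h against control 0 h 2 were higher and 1 was lower, where 0.132% and 1.73% of all transcripts were. Cre16.g676150 had a log2 fold change of 2.68 (27.2 ± 13.3 TPM, n = 4, against 3.41 ± 1.71 TPM, n = 5, SD) and Cre12.g530350, the gene next to IRT1, one of 1.93 (10.3 ± 2.61 against 1.98 ± 0.71 TPM). At 24 h of NaCl against control 24 h both were lower, with log2 fold changes of -2.53 and -2.03, where 5.97% of all transcripts were called lower. At 24 h of mannitol against control 24 h neither was called, with -1.62 (adjusted p = 0.0289) and -1.44 (adjusted p = 0.0301) by limma.

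Cre16.g651050 went the other way, with 6.25 ± 1.61 TPM after 24 h of NaCl and 48.4 ± 25.6 TPM after 24 h of mannitol (SD, n = 3 each), against 0.463 ± 0.417 TPM in control 24 h (SD, n = 4), log2 fold changes of 2.33 and 5.01. Of all transcripts, 6.08% and 0.908% were called higher in these 24 h comparisons. Cre17.g700950 was higher than control 0 h from 30 min to 6 h of NaCl and from 4 h to 24 h of mannitol, with log2 fold changes between 1.47 and 2.74. Between 3.19% and 5.59% of all transcripts were called higher at those times of NaCl, and between 0.491% and 0.762% at those of mannitol. At 4 h and 6 h of each osmolyte and at 24 h of mannitol, 2 of the 10 were called higher than control 0 h. At 60 min of mannitol 3 of the 10 were lower and 1 was higher than control 0 h, close to the 27.7% and 9.80% of all transcripts called lower and higher. The lowest were Cre12.g510050 (-2.32 as deposited, -1.64 after median-ratio scaling) and Cre02.g096150 (-2.08 and -1.39). Cre10.g423500 (-1.59 at 60 min of mannitol), Cre02.g092600 (-1.14 at 30 min of NaCl) and Cre10.g436050 (-1.02 at 60 min of NaCl) were lower as deposited and not called after scaling. Cre16.g658400 was called in no comparison, with log2 fold changes between -0.86 and 0.67.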

How the data were processed

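RNA-seq libraries of 14 groups (45 libraries) were analysed. The authors sequenced single-end reads, aligned them with BWA to the version 5.6 reference genome and tested them with DESeq2. The deposited table holds TPM for 19526 transcripts of 17737 genes, and how TPM was calculated is not given in the sources used here. Every library sums to the same total, so depth is unknown. Here log2(TPM + 1) of 13651 transcripts with at least 1 TPM in at least 3 libraries was fitted for each pair of groups with limma 3.58.1 (R 4.3.3, trended and robust moderation) and adjusted by Benjamini-Hochberg. A call needed an adjusted p under 0.01 and a fold change over 2. The script was tested on simulated data.

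The members and the gene lists were chosen with earlier results of these data known. All named genes were followed in every group, listed identifiers were named with values where called against a control and otherwise given by their range, and the 3 most alike transcripts were named for each gene. No sequences were printed. Identifiers of neighbouring genes follow the order of genes in the version 5.5 assembly.

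Whether replicate numbers pair the libraries was checked by correlating deviations from group means. All pairs of the same number exceeded 0.1 for NaCl against mannitol at 60 min, 4 h, 6 h and 24 h and for control 24 h against control 0 h (0.12 to 0.71 over these comparisons), and not in the other comparisons. The same-number library was the best match in 3 of 3 pairs at 60 min and at 24 h, and in 2 of 3 at 6 h. It was so in 1 of 3 at 4 h and in 2 of 4 between controls. Replicate 3 of both osmolytes has a library number of 49 or higher, and what these correlations reflect was not tested. Alternatives covered the pseudocount, filters, scaling, thresholds, a joint fit, blocks, moderation and each library left out.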

Additional observations from a re-analysis of the deposited data

How the results depend on the processing

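The calls numbered 9 after NaCl, 6 after mannitol (both against control 0 h), 7 at 24 h against control 24 h, 6 between osmolytes and 4 between controls. With no filter on low values they were 4, 3, 3, 0 and 3, and the 30 pairs behind the 0 held 11 with an unadjusted limma p under 0.05. The share of all transcripts called was not counted under this or the other alternatives in this section. Whether fewer calls there are particular to the iron genes was therefore not tested. With a log2 fold change beyond 2 they were 1, 3, 4, 2 and 3. With all 9 control libraries as control there was 1 call after NaCl and 1 after mannitol. In that fit the log2 fold change reversed for FEA1 at 30 min (-0.36) and 60 min of NaCl (-0.82), FRE1 at 30 min (-0.084) and 60 min of NaCl (-0.090), FEA2 at 24 h of NaCl (-0.054) and FEA1 at 24 h of mannitol (-0.39), since that control includes the high 24 h libraries.

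With the replicate number as a block (replicate block) the counts were 9, 5, 2, 6 and 4. The 24 h comparison with control 24 h shares 2 numbers, so its fit rests on few pairs. Replicate 3 of each treated group has a library number of 49 or higher and replicate 3 of each control a lower one, so against controls this block pairs across those numbers. With the library number (49 or higher against lower) as the block instead, the counts were 8, 8, 8, 6 and 4, and of the 32 calls FRE1 at 30 min of NaCl was lost (log2 fold change 0.996). Where all pairs of the same number exceeded 0.1 in the pairing check, the replicate block changed no call. With the replicate block, at 24 h against control 24 h FEA1 and FRE1 after NaCl were still called. FTR1 and FEA2 after NaCl lost their calls (adjusted p = 0.0177 and 0.0232 by limma). All 3 calls after mannitol were lost too, with adjusted p of 0.0845 for FEA1, 0.0964 for FEA2 and 0.138 for FRE1. Against control 0 h FRE1 at 30 and 60 min of NaCl, FEA2 at 24 h of NaCl and FEA1 at 24 h of mannitol lost their calls. There FEA1 at 4 h of NaCl and FEA2 at 4 h and 6 h of NaCl gained one.

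Leaving out each library in turn gave 6 to 9 calls after NaCl, 5 to 7 after mannitol, 5 to 8 at 24 h against control 24 h, 4 to 7 between osmolytes and 3 to 4 between controls. Of the 32 calls, 19 were kept with every library left out in turn. With moderation neither trended nor robust 27 were kept, with quantile normalization 29 and with a pseudocount of 0.1 31. With g15293.t1 and g15294.t1 removed from the TPM 30 were kept, and with a joint fit over all 14 groups 32. No sign was reversed in these settings. TPM without depth gives no counting error, so values under 1 TPM for FRE1 and IRT1 carry an unknown precision.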

Other observations

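The gene next to FEA1 on the side away from FEA2, Cre12.g546500, was looked at after its values had been seen. It had 139, 128, 155 and 104 TPM in control 24 h, against 31.9, 11.7, 19.9, 19 and 7.76 TPM in control 0 h, a log2 fold change of 2.92 (SE 0.32, adjusted p = 4.68e-05 by limma), the fifth highest of all transcripts. It had 15.3, 10.8 and 11 TPM after 24 h of NaCl and 35.9, 21.1 and 15.4 TPM after 24 h of mannitol, with log2 fold changes of -3.31 and -2.46 against control 24 h. Cre12.g546650, on the far side of FEA2, gave -0.24 in the untreated comparison and was not called.

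Within the first hour Cre12.g546500 was higher at 30 min of NaCl (61.4, 61.8 and 54.4 TPM, log2 fold change 1.8) and lower at 60 min of NaCl (3.42, 4.22 and 3.41 TPM, log2 fold change -1.89), both against control 0 h. Of all transcripts, 5.59% were called higher at 30 min of NaCl. At 60 min of NaCl 30.9% were called lower, and 15.3% after median-ratio scaling. FEA1 was higher than control 0 h at both times, and FTR1 was called at 30 min and not at 60 min. At 60 min of mannitol Cre12.g546500 was higher again (56.4, 93.4 and 53.8 TPM, log2 fold change 1.95), where 9.80% of all transcripts were called higher. Whether overlapping transcripts share reads at this locus was not tested.

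The other transcripts called higher in control 24 h than in control 0 h, beside the 4 iron genes, Cre12.g546500, Cre16.g676150 and Cre12.g530350, included Cre16.g661850 (19.5 against 0.875 TPM, log2 fold change 3.45), Cre07.g336800 (66.1 against 5.13 TPM, 3.44) and Cre16.g661750 (13.8 against 0.674 TPM, 3.07), which ranked directly below FEA1.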
